A study of Homo sapiens with 2 samples.

Results

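The genes described here are 10 that store, import, export or sense iron: FTH1, FTL, TFRC, SLC40A1, SLC11A2, HMOX1, IREB2, ACO1, NCOA4 and STEAP3. They were chosen by symbol for their role, matched through GENCODE release 44 on hg38, and all 10 were found among the 58735 gene identifiers of the count tables. Their counts came from 2 libraries of polyadenylated RNA, 1 sequenced as native RNA on a Nanopore MinION and 1 on Illumina, and the series describes the RNA as matched. MCF10a-Snail-ER is a non-tumorigenic human mammary epithelial line with a stable fusion of the transcription factor Snail to the estrogen receptor. Both libraries came from cells in DMEM/F-12 with horse serum, insulin, EGF, hydrocortisone and cholera toxin, given 100 nM tamoxifen for 1 day, which sets off an epithelial-to-mesenchymal transition. The labels do not say whether the line is 1 clone, and neither library is from untreated cells, so the values compare sequencing methods and not a response to Snail or tamoxifen. There was 1 library per platform, so every interval and test below covers counting error only, and the tests compare these libraries.

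The totals were 403235 Nanopore and 191741714 Illumina counts, so that each count stood for 2.48 CPM (counts per 1000000) in the Nanopore and 0.00522 CPM in the Illumina library. The labelled cell type was checked with markers. All 8 basal mammary markers, such as KRT5, KRT14 and S100A2, had counts in both libraries, summing to 9607 CPM in the Nanopore and 10957 CPM in the Illumina library. S100A2 alone held 5989 and 7687 CPM of these sums, and TP63 had 5 Nanopore and 6368 Illumina counts. The 4 luminal markers summed to 680 and 535 CPM, nearly all from KRT8 (389 and 209 CPM) and KRT18 (280 and 322 CPM). The luminal markers KRT19 and EPCAM had only 1 and 3 Nanopore and 88 and 770 Illumina counts. The 4 erythroid markers summed to 0 and 0.0574 CPM, the 4 hepatocyte markers to 0 and 0.136 CPM and the 4 fibroblast markers to 2.48 and 6.15 CPM. The 3 endothelial markers summed to 0 and 5.16 CPM, with 973 of their 990 Illumina counts from PECAM1, and CD3E and PTPRC had 0 and at most 2 counts. The leukocyte list summed to 44.6 and 56.04 CPM, all but the 2 PTPRC counts from CD68 and CD14.

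Cells hold spare iron inside ferritin, a hollow shell built from heavy chains (FTH1), which oxidise iron so that it can be stored, and light chains (FTL), which help to form the iron core. Iron enters mainly as transferrin bound to the transferrin receptor (TFRC), is reduced in the endosome by STEAP3 and passes into the cytosol through SLC11A2, and ferroportin (SLC40A1) is the exporter. The iron regulatory proteins ACO1 and IREB2 bind a hairpin called the iron-responsive element when iron is scarce. Bound near the start of a messenger it blocks translation, as in the ferritin chains, and bound after the coding part of TFRC it protects the messenger from decay.

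The hairpins are shown first because they are the feature by which these messengers are known to be co-regulated. A script searched the untranslated regions (UTRs) of all protein-coding transcripts of GENCODE release 44, on the messenger's own strand, for a C, 5 bases, the loop CAGTGN and 5 further bases, with the 5-base arms able to pair (A with T, G with C, or G with T). The search found 1 match each in the 5′ UTR of FTH1, FTL and SLC40A1, and 4 in the 3′ UTR of TFRC. The other 6 members had no match to these letters. Elements whose arms pair incompletely or hold an extra base are not matched by this search. A member without a match may therefore still carry an element, and the number of elements in a messenger may be higher than listed. The loop is in capitals below, each line is 29 bases, 5′ to 3′, as DNA letters.
FTH1: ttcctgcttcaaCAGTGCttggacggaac
FTL: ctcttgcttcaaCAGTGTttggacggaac
SLC40A1: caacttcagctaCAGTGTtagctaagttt
TFRC 1: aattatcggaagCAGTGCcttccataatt
TFRC 2: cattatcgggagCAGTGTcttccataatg
TFRC 3: ctgtatcggagaCAGTGAtctccatatgt
TFRC 4: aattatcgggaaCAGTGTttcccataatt

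In hg38 the FTH1 hairpin lies at chr11:61967574-61967602 on the minus strand, in exon 1 of the canonical transcript. That of FTL lies at chr19:48965335-48965363 on the plus strand, in exon 1, and that of SLC40A1 at chr2:189580661-189580689 on the minus strand, in exon 1. The 4 of TFRC lie in exon 19 on the minus strand of chromosome 3, the first at chr3:196050979-196051007 and the last at chr3:196050463-196050491. A match was present in the 5′ UTR of 39 of 18994 protein-coding genes with such a region (0.205%) and in the 3′ UTR of 142 of 19213 (0.739%). On the opposite strand of the same regions, where no such RNA is made from the gene, the shares were 0.205% and 0.718%. A match to these letters is a description of sequence, and the counts do not measure whether any hairpin was bound.

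The ferritin chains dominated the group. FTH1 had 1383 Nanopore and 243320 Illumina counts, and FTL had 452 and 219561. Together they held 93.6% of the members' Nanopore counts (exact Clopper-Pearson 95% interval 92.4 to 94.6%) and 84.9% of their Illumina counts (84.8 to 85.0%). The 10 genes as a group held 0.486% of the counts in the Nanopore library (0.465 to 0.508%) and 0.284% of those in the Illumina library (0.284 to 0.285%). With Illumina counts divided by length the members' Illumina share rose to 0.382% (canonical), 0.373% (mean) or 0.546% (union), the last of which is above the Nanopore share. Without FTH1 and FTL the order of the count shares turned: the other members held 0.0312% of the Nanopore library (0.0260 to 0.0372%) and 0.0431% of the Illumina library (0.0428 to 0.0434%).

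**Figure D1:**
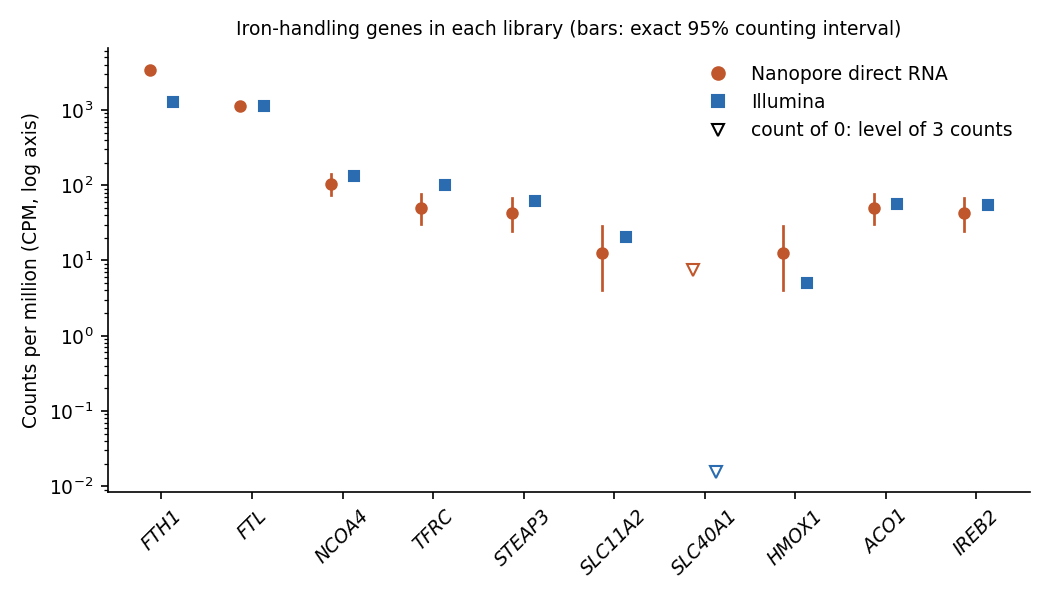
Level of each of the 10 genes in counts per 1000000 on a log axis, for the Nanopore library (circles) and the Illumina library (squares), with exact 95% counting intervals as bars and open triangles at the level of 3 counts where the count was 0. FTH1 stands at 3430 CPM (Nanopore) and 1269 CPM (Illumina), while the FTL points are nearly level and SLC40A1 has no count in either library.

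Each gene was compared between the libraries as a log2 ratio, the Nanopore over the Illumina value with 1 CPM added to each, with an exact conditional binomial test on its counts, over all 12414 genes whose mean CPM reached 5. SLC40A1 was too low to be tested. Of the 9 members tested, 2 had an adjusted p-value under 0.05, FTH1 higher by Nanopore and TFRC higher by Illumina. Over all tested genes 47.4% were called, 20.2% higher by Nanopore and 27.2% higher by Illumina. No member was also 4-fold different, against 12.9% of all tested genes 4-fold higher by Nanopore and 7.31% that were so by Illumina. Log2 ratios of the 9 members ran from −0.99 for TFRC to 1.43 for FTH1 with a median of −0.35, and the median of all tested genes was −0.42 (quartiles −1.18 and 0.54). On library totals the members' median thus lay near that of all genes. With Illumina counts divided by canonical length the members' median was 0.86, against 0.49 for all tested genes.

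FTH1 (ENSG00000167996, chromosome 11, 61959718 to 61967634, minus strand) stood at 3430 CPM in the Nanopore library (3252 to 3615) and at 1269 CPM in the Illumina library (1264 to 1274). It was the 18th most counted gene by Nanopore and the 96th by Illumina. The ratio of its CPM values was 2.70 (counting interval 2.56 to 2.85), a log2 ratio of 1.43 with a Benjamini-Hochberg adjusted p of 3.83e-218 in the exact binomial test.

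FTL (ENSG00000087086, chromosome 19, 48965309 to 48966879, plus strand) stood at 1121 CPM in the Nanopore library (1020 to 1229) and at 1145 CPM in the Illumina library (1140 to 1150). Its CPM ratio was 0.979 (0.891 to 1.07), with an adjusted p of 0.787 in that exact test, so it was not called on library totals. Per length it was called higher by Illumina, with log2 ratios of −0.86, −0.49 and −1.67 for canonical, mean and union length. FTL ranked 151st by Nanopore and 111th by Illumina. The ferritin chains, each with 4 exons, thus took different positions between the libraries.

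The light and heavy chain can be set against each other without the library totals. FTH1 made up 75.4% of the FTH1 and FTL counts in the Nanopore library (73.3 to 77.3%) and 52.6% in the Illumina library (52.4 to 52.7%), and these intervals do not overlap. Illumina counts rise with transcript length, and per base of the canonical transcript, 1203 bases for FTH1 and 871 for FTL, the Illumina share of FTH1 fell to 44.5%. FTH1 therefore had 3.06 counts for each FTL count by Nanopore and 0.802 of the FTL level by Illumina per length, so that which chain was the more abundant messenger depended on the library and the length used. With the mean length of all annotated transcripts as the divisor the Illumina share was 55.5%, and with the union of all exons it was 32.5%.

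**Figure D2:**
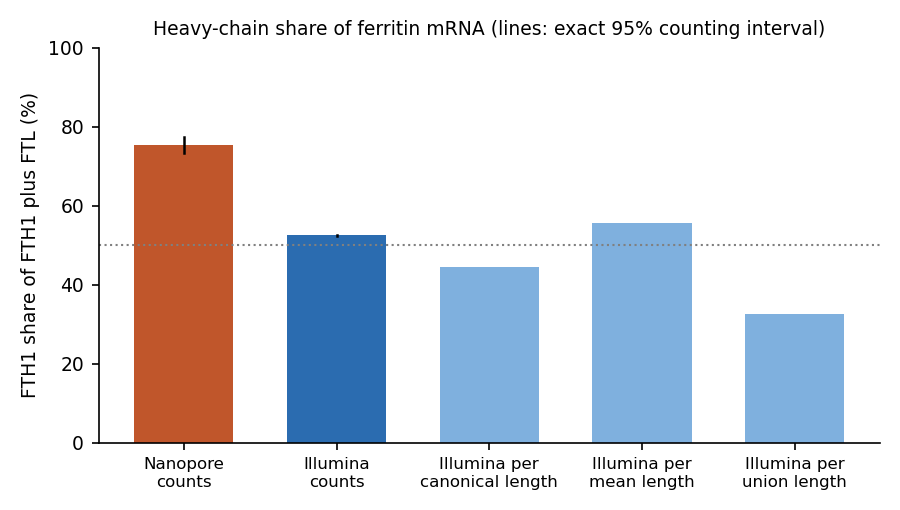
Share of FTH1 in the summed level of FTH1 and FTL, in percent, for Nanopore counts, Illumina counts and Illumina counts divided by 3 kinds of gene length; lines are exact 95% counting intervals for the shares of counts and the dotted line marks equal amounts. The Nanopore share, 75.4%, is above every Illumina share, which run from 32.5% to 55.5%.

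FTH1 is the ferritin gene that overlaps another gene. BEST1 (ENSG00000167995, chromosome 11, 61950063 to 61965515), which encodes a chloride channel of the retinal pigment epithelium, lies on the opposite strand and shares 5798 bases of gene body with it. Annotated exons of BEST1 cover all of exons 2, 3 and 4 of the canonical FTH1 transcript (147, 126 and 607 bases) and none of exon 1, which is 880 of its 1203 bases or 73.2%. The canonical transcripts of the 2 genes share 177 exonic bases.

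BEST1 had 1383 Nanopore counts, the same number as FTH1. By Illumina it had 174053 counts, 71.5% of the FTH1 count, beside 73.2% of the canonical FTH1 transcript, or 63.2% of the union of all FTH1 exons, that lies in BEST1 exons. BEST1 was at 908 CPM by Illumina, and its log2 ratio was 1.92. How reads in exons of both genes were assigned is not given in the sources used here, and whether these counts are the same reads was not tested. FTL overlaps no annotated gene.

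**Figure D3:**
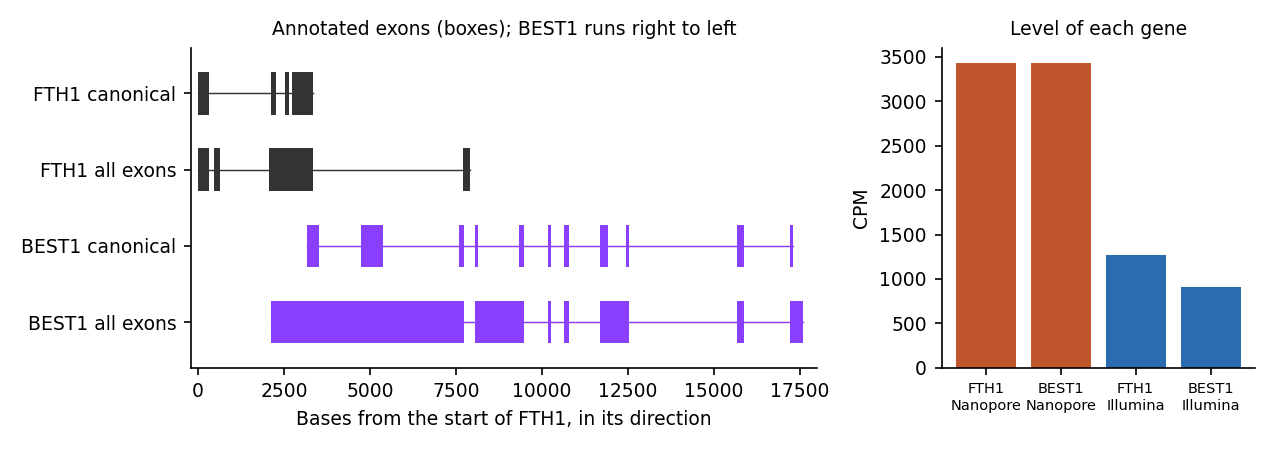
Left, annotated exons of FTH1 and BEST1 as boxes, by distance in bases from the start of FTH1 in its own direction, for the canonical transcript and for all transcripts; right, the level of each gene in CPM in each library. The BEST1 exons cover FTH1 exons 2 to 4, and the Nanopore bars are equal at 3430 CPM.

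Ferritin genes also have many processed pseudogenes, copies of the spliced messenger elsewhere in the genome. Of the 31-base words of the canonical FTH1 transcript, 60.9% occur on the primary chromosomes of hg38, alternate contigs left out, outside the FTH1 gene and 52.2% occur in annotated FTH1 or FTL pseudogenes. For FTL these shares were 52.1% and 36.3%. Among the other members NCOA4 shared 22.9% of its words with the rest of the genome, ACO1 4.15% and IREB2 3.46%, and SLC11A2, SLC40A1, STEAP3, TFRC and HMOX1 shared none.

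Few counts were given to the pseudogenes in the tables. The 25 FTH1 pseudogenes held 5 Nanopore and 1462 Illumina counts, which is 0.360% (0.117 to 0.839%) and 0.597% (0.567 to 0.629%) of the counts of FTH1 and its copies. The 16 FTL pseudogenes held 2 and 1365 counts, or 0.441% (0.0534 to 1.58%) and 0.618% (0.586 to 0.651%). FTLP3 (chromosome 20, 4023917 to 4024444) had 1346 Illumina and 2 Nanopore counts, FTH1P7 had 408 and 2, FTH1P2 had 397 and 0, and FTH1P10 had 144 and 2. Adding all of these to their parents moved the FTH1 share to 75.4% by Nanopore and 52.6% by Illumina, the same to 3 digits. The split between a parent and its copies remains uncertain, since the treatment of reads that map to several places is not given in the sources used here.

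NCOA4 (ENSG00000266412, chromosome 10, 46005088 to 46030623), the receptor that carries ferritin to the autophagosome for iron release, was the third most abundant member on each scale. It had 42 Nanopore and 25458 Illumina counts, or 104 CPM (75.1 to 141) and 133 CPM (131 to 134). Its log2 ratio of −0.35 was not called (adjusted p = 0.204, exact binomial test), and its CPM by Illumina was 1.27 times that by Nanopore (0.943 to 1.77).

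TFRC (ENSG00000072274, chromosome 3, 196012511 to 196082153), the receptor for iron-loaded transferrin, had 20 Nanopore and 19134 Illumina counts. These were 49.6 CPM (30.3 to 76.6) and 99.8 CPM (98.4 to 101), so TFRC was 2.01 times higher by Illumina (1.302 to 3.29). The log2 ratio of TFRC, −0.99, had a Benjamini-Hochberg adjusted p of 0.00213 in the exact binomial test. The call does not hold per length: with Illumina counts divided by the 5012 bases of the canonical transcript the log2 ratio became 0.67 (adjusted p = 0.116, exact binomial test), and with the 17376 bases of the exon union it became 1.61 (adjusted p = 8.33e-05).

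The remaining uptake genes had few Nanopore counts. STEAP3 (ENSG00000115107), the ferrireductase of the endosome, had 17 Nanopore and 12004 Illumina counts, or 42.2 CPM (24.6 to 67.5) and 62.6 CPM (61.5 to 63.7). SLC11A2 (ENSG00000110911), the ferrous iron transporter also called DMT1, had 5 and 3934 counts, or 12.4 CPM (4.03 to 28.9) and 20.5 CPM (19.9 to 21.2). For neither gene was a difference detectable at this depth, with exact binomial adjusted p-values of 0.187 for STEAP3 and 0.457 for SLC11A2. STEAP3 is overlapped by the antisense lncRNA STEAP3-AS1, whose exons cover 500 bases of the canonical STEAP3 transcript. STEAP3-AS1 had 7 Nanopore and 748 Illumina counts, 41.2% and 6.23% of the STEAP3 counts.

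SLC40A1 (ENSG00000138449, chromosome 2, 189560590 to 189583758), the iron exporter, had no count in either library. Taken as 3 counts, the limit that a count of 0 allows is 7.44 CPM in the Nanopore and 0.0156 CPM in the Illumina library, so the deeper library sets the limit for this messenger. With its 5′ hairpin it is among the 4 members with a match to the element, and it is the member whose messenger was not detected.

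HMOX1 (ENSG00000100292, chromosome 22, 35380361 to 35394214), the inducible enzyme that frees iron from heme, was the lowest detected member by Illumina. It had 5 Nanopore and 964 Illumina counts, or 12.4 CPM (4.03 to 28.9) and 5.03 CPM (4.72 to 5.36). Its log2 ratio of 1.15 had an exact binomial adjusted p-value of 0.187, and the CPM ratio of 2.47 had a counting interval of 0.799 to 5.78. The direction was therefore not resolved with 5 Nanopore reads.

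The iron sensors had similar counts in each library. ACO1 (ENSG00000122729, chromosome 9, 32384603 to 32454769), which is a cytosolic aconitase when it holds an iron-sulfur cluster, had 20 Nanopore and 10763 Illumina counts, or 49.6 CPM (30.3 to 76.6) and 56.1 CPM (55.1 to 57.2). IREB2 (ENSG00000136381, chromosome 15, 78437431 to 78501453), which is degraded when iron is plentiful, had 17 and 10350 counts, or 42.2 CPM (24.6 to 67.5) and 54.0 CPM (52.9 to 55.03). IREB2 made up 45.9% of the summed counts of the sensors in the Nanopore library (29.5 to 63.1%) and 49.0% in the Illumina library (48.3 to 49.7%), where per length it was 53.1% (canonical), 72.3% (mean) or 40.2% (union). The adjusted p-values of the exact binomial test were 0.789 for ACO1 and 0.488 for IREB2, and the CPM ratio of ACO1 was 0.884 (0.540 to 1.37) and that of IREB2 0.781 (0.455 to 1.25). Per length the signs turned: ACO1 was called higher by Nanopore with all 3 kinds of length (log2 ratios 2.00, 1.77 and 1.26 by canonical, mean and union), and IREB2 with canonical (1.60) and union length (1.57) but not with mean length (0.22).

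Levels of different genes were ordered by Nanopore CPM, where a read stands for an RNA strand, and by Illumina counts per canonical transcript length scaled to a sum of 1000000 (TPM). By Nanopore the order was FTH1, FTL, NCOA4, then ACO1 and TFRC level with each other, IREB2 and STEAP3 level with each other, HMOX1 and SLC11A2 level with each other, and SLC40A1 at 0. From NCOA4 down, the counting interval of each gene overlapped that of the next, so only FTH1 and FTL were set apart from their lower neighbour. By Illumina the order was FTL at 2037 TPM, FTH1 at 1635 TPM, NCOA4 at 59.5 TPM, TFRC at 30.9 TPM, STEAP3 at 22.8 TPM, IREB2 at 13.2 TPM, ACO1 at 11.7 TPM, SLC11A2 at 7.70 TPM and HMOX1 at 5.01 TPM, and no neighbours had overlapping counting intervals. Both orders put storage above uptake. FTH1 stood at 69.2 times TFRC by Nanopore counts and 53.0 times by Illumina TPM, and FTL at 22.6 times and 66.0 times.

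Transcript length went along with the ratio across all genes, so each member was set beside genes of like length. Tested genes were put in 5 groups of about equal size by canonical transcript length. FTH1 and FTL were in the shortest group, 53 to 1284 bases, whose median log2 ratio was 1.19 (quartiles 0.0048 and 3.44), and among the 456 of these genes that overlap no other gene it was 0.15 (quartiles −0.44 and 0.92). The FTH1 ratio of 1.43 was above both medians, inside the quartiles of the group and above the upper quartile of its genes without overlap. The FTL ratio of −0.03 was below both medians, just below the lower quartile of the group and inside the quartiles of its genes without overlap. ACO1 and IREB2 were in the longest group, from 5377 bases, with a median of −1.0 (−1.06 without overlap). At −0.18 and −0.35 they were above both values. In the group of 3551 to 5374 bases, with a median of −0.81 (−1.01 without overlap), STEAP3 at −0.56 and SLC11A2 at −0.68 were above both values, and TFRC at −0.99 lay between them. NCOA4 at −0.35 was above the −0.56 of its group (−0.77 without overlap), and HMOX1 at 1.15 above the −0.20 of its group (−0.39 without overlap).

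Dividing the Illumina counts by canonical length raised the median log2 ratio of all tested genes from −0.42 to 0.49, a shift of 0.91, and the member ratios on that scale are best read against it. FTH1 was then at 1.07 and FTL at −0.86, on either side of the shifted median. ACO1 was at 2.00 and IREB2 at 1.60, with exact binomial adjusted p-values of 1.51e-06 and 0.000337, and NCOA4 at 0.80 with 0.0034. On this scale 5 of the 9 tested members were called, 4 higher by Nanopore and 1 higher by Illumina. Of all tested genes 44.5% were called on this scale, 33.2% higher by Nanopore and 11.2% higher by Illumina. FTH1 and HMOX1 were above 0 under every scaling tried, including the 3 kinds of length. HMOX1 was called under none of them, and all of them use the same 5 Nanopore counts of that gene. FTL was below 0 under all 3 kinds of length.

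**Figure D4:**
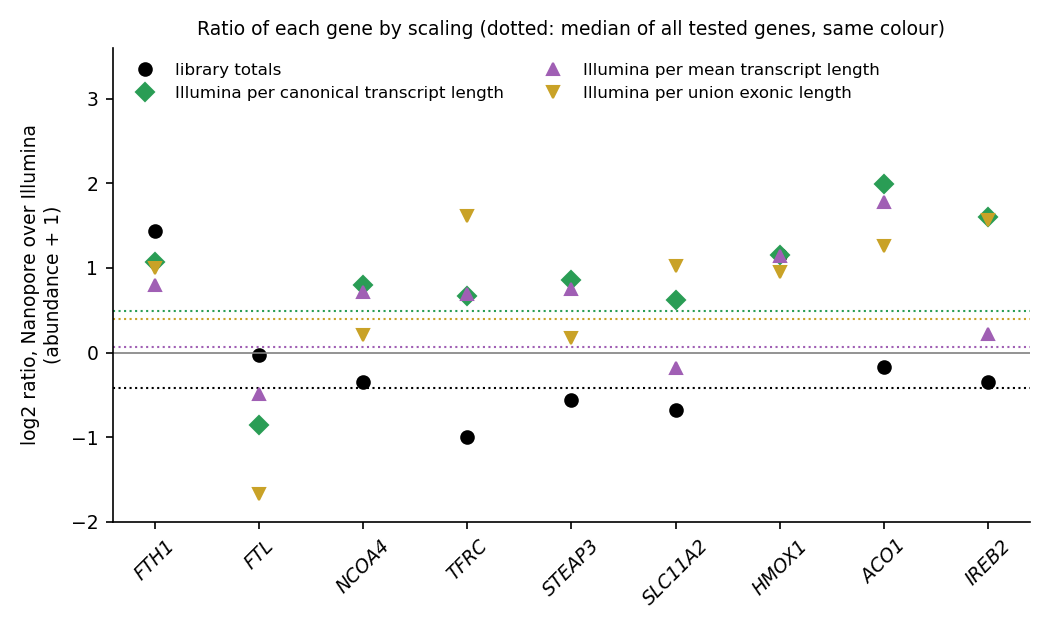
Log2 ratio of Nanopore over Illumina abundance for the 9 tested genes, with library totals (circles) and with Illumina counts divided by 3 kinds of length; dotted lines are the medians of all tested genes in the same colours. TFRC, NCOA4, STEAP3, ACO1 and IREB2 cross from below to above 0 once length is divided out, while FTH1 stays above and FTL falls further below.

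A wider list of 68 genes of iron uptake, storage, regulation, heme and iron-sulfur cluster metabolism was read in the same way. Nanopore detected 55 of them and Illumina 64, and 4 had no count in either library. Of the 54 tested, 19 were called, 35.2% in all, below the 47.4% over all tested genes. This order did not hold under every setting. Among genes without overlap 10 of 20 were called, against 39.8% of all such genes. By union length 23 of 51 were called, against 45.2% of all tested genes. No test of the set was run. The Nanopore value was higher for 8 (14.8%, against 20.2% of all tested genes) and the Illumina value for 11 (20.4%, against 27.2%). The median log2 ratio of the 54 was −0.19 (quartiles −0.96 and 0.50). FLVCR2, a transporter of the plasma membrane, was the only gene of the list called at 4-fold, with 18 Nanopore and 318 Illumina counts and a log2 ratio of 4.10 (exact binomial adjusted p-value 2.49e-18), and its body overlaps 6 other annotated genes.

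**Figure D5:**
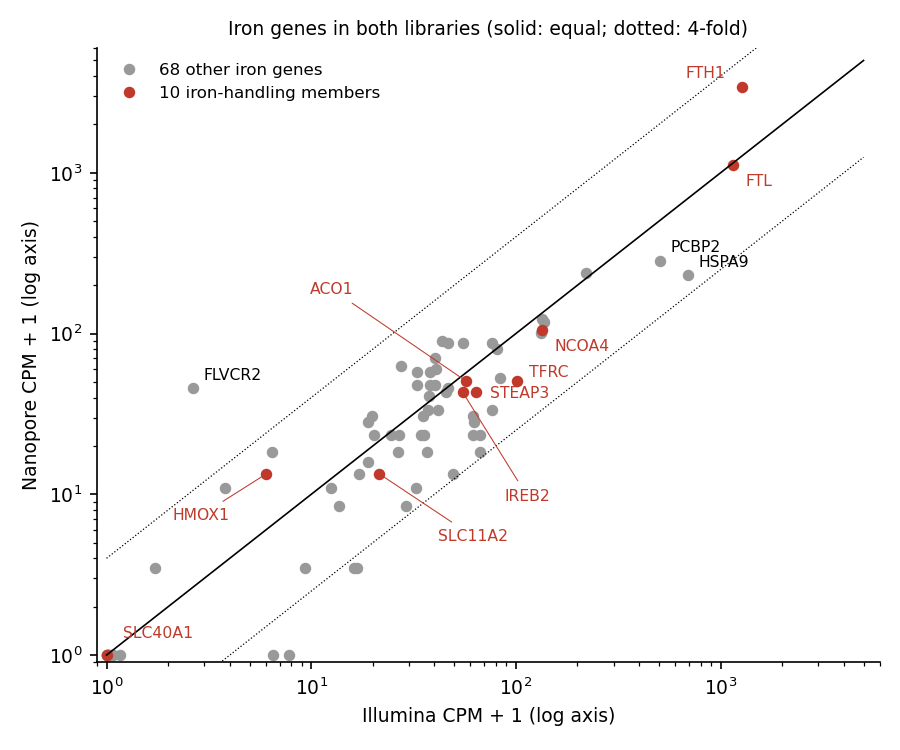
Nanopore CPM plus 1 against Illumina CPM plus 1, on log axes, for the 10 iron-handling genes (red) and the 68 genes of the wider list (grey), with lines for equality and for 4-fold. FTH1 and FTL lie apart from the rest at the top, and FLVCR2, at 44.6 and 1.66 CPM, lies above the 4-fold line.

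By role, 6 of 16 tested heme genes were called (37.5%), 2 higher by Nanopore (12.5%) and 4 higher by Illumina (25%). Over all tested genes these shares were 47.4%, 20.2% and 27.2%. With 16 heme genes tested and no test of the set, these shares are a description only. UROD and PGRMC1, the most abundant heme genes by Illumina CPM, had 40 and 32 Nanopore counts. Their log2 ratios were −0.40 and −0.01, and neither was called on library totals. UROD was called higher by Illumina by canonical length (−0.78) but not by union length (0.16). PGRMC1 was called by neither length (0.26 and −0.50). Of 27 tested genes of mitochondrial iron and iron-sulfur clusters, 37.0% were called, 5 higher by Nanopore (18.5%) and 5 by Illumina (18.5%). HSPA9, the mitochondrial chaperone that serves cluster assembly, had 93 Nanopore and 132881 Illumina counts and a log2 ratio of −1.58 (exact binomial adjusted p-value 9.88e-37). The HSPA9 call does not hold per length, with log2 ratios of −0.08 by canonical and 0.26 by union length, neither called.

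Beside ferritin, the iron chaperones PCBP1 and PCBP2 deliver iron to the shell. PCBP2 was at 283 CPM by Nanopore and 505 CPM by Illumina, a log2 ratio of −0.84 (exact binomial adjusted p-value 8.65e-11). Per length the PCBP2 ratio was 0.19 by canonical length, not called, and 0.71 by union length, called higher by Nanopore. PCBP1 was at 236 and 220 CPM, a log2 ratio of 0.10 that was not called on library totals. It was not called by canonical length either (0.25), but was called higher by Illumina by union length (−0.55). FTMT, mitochondrial ferritin, had no count in either library. In uptake 1 of 5 tested genes was called (20%, against 47.4% of all tested genes). SLC39A14, a transporter for iron not bound to transferrin, was at 86.8 and 75.7 CPM. CYBRD1, a ferric reductase, was at 17.4 and 35.7 CPM, and neither was called on library totals. By canonical and union length SLC39A14 was called higher by Nanopore (1.75 and 1.52), and CYBRD1 was not called (0.38 and −0.10). Of the regulators, EPAS1 was at 22.3 and 65.8 CPM, called higher by Illumina with a log2 ratio of −1.52 (exact binomial adjusted p-value 0.00059). FBXL5, the ligase that marks IREB2 for degradation, was at 47.1 and 39.3 CPM and not called on library totals. By canonical and union length EPAS1 was not called (0.17 and −0.13), and FBXL5 was called higher by Nanopore (1.38 and 1.02). HEPH and CP, the ferroxidases that act with the exporter, had 0 and 4 Nanopore and 1055 and 536 Illumina counts.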

How the data were processed

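The authors deposited raw counts per gene, not normalized, for each library. Per the submitters' processing notes, the tools included minimap2 2.11-r797, HISAT2 2.1.0 and featureCounts, with build hg38. Counting options, strand setting, treatment of multi-mapping or overlapping reads, annotation release, and any correction of the Nanopore reads are not given in the sources used here. Of the 58735 identifiers, 58207 matched GENCODE release 44, which gave names, positions and lengths. Per the file headers, the name of the Nanopore column ends in a suffix whose meaning is not given in the labels. The tests take the libraries as independent, which would not hold if Illumina reads had been used to correct the Nanopore reads. CPM is counts divided by the library total times 1000000. The exact binomial test was two-sided, given the totals, with Benjamini-Hochberg adjustment over all 12414 genes of at least 5 mean CPM (scipy 1.17.1). Calls needed an adjusted p-value under 0.05. The test was also run on counts drawn at random from the Illumina proportions. Those counts hold no platform, length or overlap effect, so that run does not show how the test behaves on these libraries. The TMM alternative used edgeR 4.0.16. Intervals are exact Clopper-Pearson 95% intervals. With 1 library per platform they cover counting error only. They also take counts as independent, which amplified reads are not, so for such reads they are too narrow. Sequences came from the GENCODE transcripts. The genes and lists were chosen with earlier results of these data known. All 10 genes are named. Of the wider list, those called at 4-fold and the 2 with the most Illumina CPM per role are named. Genes that overlap a member and have counts, and the 3 ferritin pseudogenes with most counts per library, are named too. Some genes that these rules name are not reported here.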

Additional observations from a re-analysis of the deposited data

How the results depend on the processing

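Settings other than gene length and overlap changed no call among the members they tested; a minimum of 20 CPM left out SLC11A2 and HMOX1. With length divided out (canonical, mean and union), members called went from 2 to 5, 4 and 5, and those higher by Nanopore from 1 to 4, 3 and 4. Of all tested genes, 20.2% were higher by Nanopore on totals and 33.2%, 24.6% and 32.4% per length, and 27.2% were higher by Illumina on totals and 11.2%, 16.9% and 12.8% per length. Wider-list genes higher by Nanopore went from 8 to 14 (canonical), 7 (mean) and 18 (union), and those higher by Illumina from 11 to 4, 10 and 5. Testing only genes without overlap left 3 members (FTL, HMOX1 and ACO1), with 0 called, 0 higher by Nanopore and 0 by Illumina. It called 10 of 20 wider-list genes, 3 higher by Nanopore and 7 by Illumina, where 39.8% of all such genes were called, 8.54% and 31.3% by direction. Fewer genes enter there by construction, FTH1 and TFRC among those left out. Without a filter, 5 of 64 wider-list genes were higher by Nanopore and 11 by Illumina, where 11.6% and 10.5% of all genes were so called. The median ratio of all tested genes moved by 0.48 with mean and 0.82 with union length, 0.14 with median-ratio scaling, 0.22 with a minimum of 1 CPM, 0.31 without a filter and −0.24 among genes without overlap.

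The ratio of FTL, −0.03, became 0.057 with TMM, 0.097 with median-ratio scaling and 0.038 without mitochondrial genes in the totals, and was called at −0.86, −0.49 and −1.67 by canonical, mean and union length. Signs turned by length, in the order canonical, mean and union, for NCOA4 (0.80, 0.72 and 0.21), TFRC (0.67, 0.69 and 1.61), STEAP3 (0.86, 0.75 and 0.18), ACO1 (2.00, 1.77 and 1.26) and IREB2 (1.60, 0.22 and 1.57), and for SLC11A2 by canonical (0.62) and union length (1.02). The Illumina share of FTH1 in ferritin moved from 52.6% to 44.5%, 55.5% and 32.5%. The share of the library held by the members was 0.382%, 0.373% and 0.546% by Illumina per length, 0.541% by Nanopore and 0.302% by Illumina without mitochondrial genes, and 0.0312% and 0.0431% without FTH1 and FTL. No paired analysis was possible because each platform has 1 library. Members with 20 or fewer Nanopore counts have intervals of over 2-fold in width, which depth sets.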

Other observations

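Equal Nanopore counts in genes that overlap on opposite strands were not limited to FTH1 and BEST1. Of 97 such pairs in which each gene had at least 100 Nanopore counts, 27 had identical counts. Within the wider iron list, a match to the iron-responsive hairpin was present in the 3′ UTR of TF, the transferrin gene, which had 0 Nanopore and 11 Illumina counts.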
